A study of Mus musculus with 14 samples.

Results

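The genes described here encode 10 receptors and partners that raise or lower the activation of T cells: Cd28, Icos, Ctla4, Pdcd1, Cd274, Lag3, Havcr2, Tigit, Cd226 and Ceacam1. They were taken by symbol from the 19752 genes that had a probe set annotated to 1 symbol alone, and receptors of the tumour necrosis factor superfamily were left out. Each of the 10 had 1 such probe set. Of the 10, 9 were bright enough to be tested among 11851 genes, and Havcr2, with a mean log2 intensity below the filter of 6.27, is given with its values and a fit without that filter.

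The arrays held RNA of splenic CD4+ T cells taken by negative selection from male C57BL/6 mice 6 weeks old. Every culture had 48 h of activation with beads against CD3 and CD28 and then received interferon alpha at 100 U/ml together with 1 of 7 inhibitors of Janus kinases (JAK) at its IC80, for 8 h or for 2 h. The inhibitors are called by their target labels: JAK1 (IFN.3404 in the titles), JAK1/2 (IFN.6221), PAN (IFN.6222), TYK2 (IFN.2485) and JAK2 (IFN.3885), while the pair labelled JAK3 keeps its titles, IFN.6226 and IFN.6228. There was 1 array for each inhibitor and time, 14 in all, and no untreated culture was part of the comparisons, so each result is a difference between times or between inhibitors.

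A T cell integrates the signal of its antigen receptor with those of costimulatory receptors of the CD28 family, which bind B7 proteins on antigen-presenting cells, and with those of inhibitory receptors, which damp the same cascades through phosphatases or by taking the ligand away. Many inhibitory receptors appear only after activation, and activated T cells can carry ligands as well as receptors. Type I interferons such as interferon alpha signal through JAK1 and TYK2, and interferon gamma through JAK1 and JAK2. Cd274 (PD-L1) is known to respond to both kinds, interferon gamma being a main inducer, whereas interleukin-2, which activated T cells make and use, signals through JAK1 and JAK3.

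All values below are log2 of the deposited probe set intensity, and a difference of 1 on this scale is a doubling. Probe sets differ in how strongly they bind, so levels are compared between arrays and not between genes. No inhibitor and time had a repeated array. The p-values of limma, a linear model fitted across all genes, therefore rest on how unevenly the inhibitors differed between the times, plus noise, or, for classes of inhibitors, on the spread between inhibitors. They were adjusted by the Benjamini-Hochberg method over all 11851 genes, with 0.05 as the threshold for a call. Time in culture and time with interferon and inhibitor go together in the labels and cannot be told apart, and in bulk RNA fewer cells of a type and less RNA per cell cannot be told apart.

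The 14 arrays were alike, with medians of 109 to 121 on the linear scale and pairwise Pearson r of 0.980 to 0.998. The 8 h array of the JAK1 inhibitor had the lowest upper quartile, 398 against 427 to 497 on the others. Cd4 lay between 11.50 and 12.11 and Cd3e between 12.27 and 12.53 on every array. Markers of other cells were also present. Of the 5 B cell markers listed, 4 were measured and tested, and Ms4a1 (CD20) lay between 8.02 and 9.12. Cd8b1 lay between 8.68 and 9.33. Cd8a, the other CD8 marker, lay not far above the filter, with a mean of 6.89 at 8 h and 6.74 at 2 h. None of 5 measured granulocyte genes passed the filter.

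The receptors differed mainly by time. Of the 9 tested genes, 4 were called higher at 8 h than at 2 h (Ceacam1, Cd226, Lag3 and Cd28) and 4 lower (Cd274, Pdcd1, Tigit and Icos), while Ctla4 was not called. Over all genes 49.3% were called, 21.3% higher and 28.0% lower. Each of the 8 called members moved the same way with all 7 inhibitors, and their 8 h and 2 h ranges did not overlap. How many of all genes had ranges without overlap was not counted, so this describes the members alone. The same sign with all 7 was found for 16.0% of all genes upwards and 22.2% downwards. The median difference of the 9 members was -0.01, against 0.02 over all genes, because the rises and falls were balanced. The exact two-sided sign-flip test over the 7 inhibitors gave p = 0.0156 for each of the 8, the smallest value that its 128 arrangements allow.

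**Figure D1:**
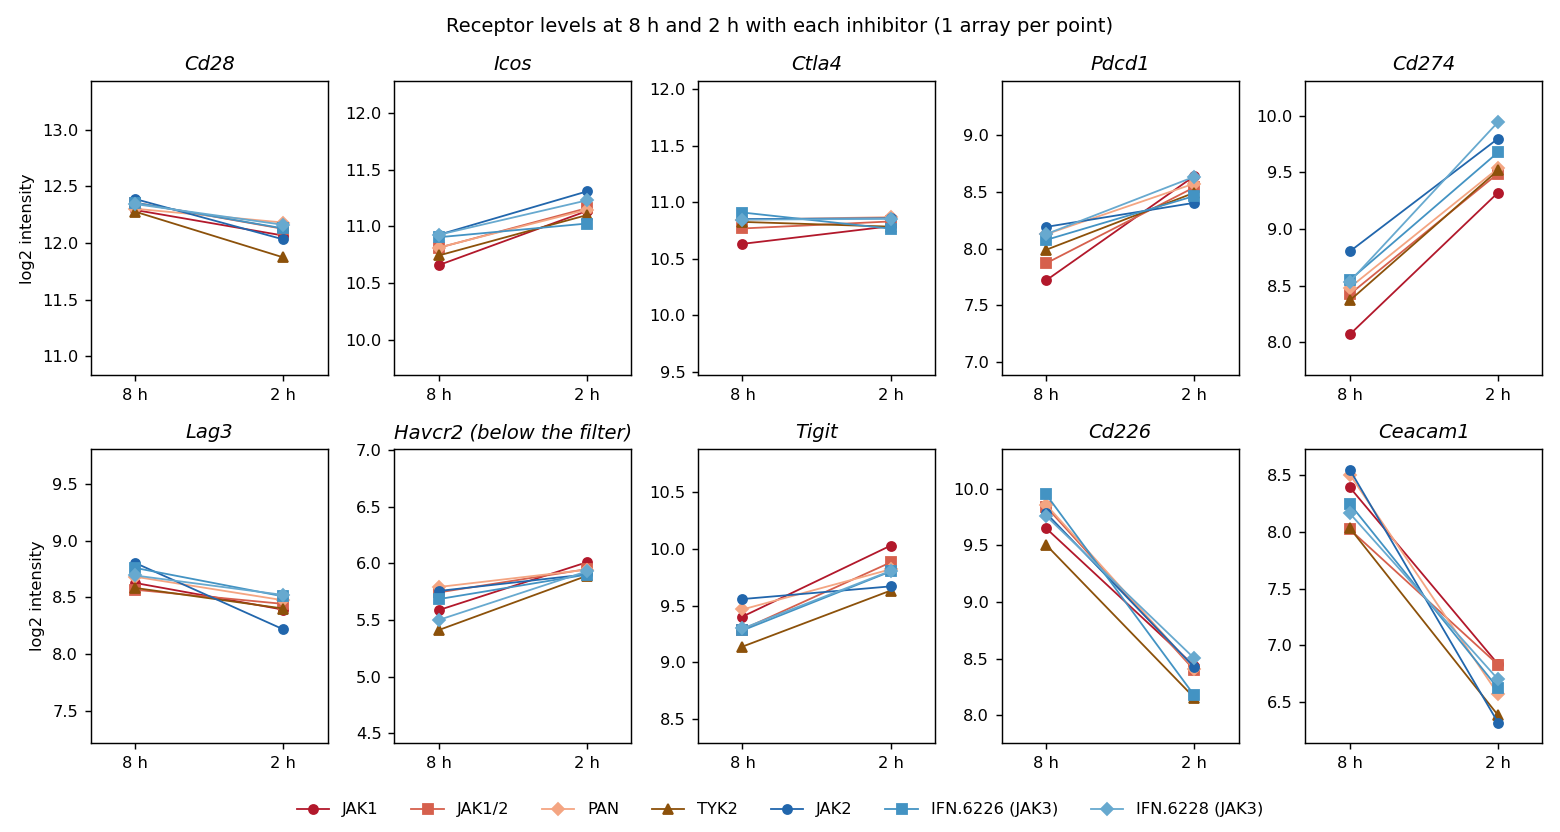
Log2 intensity of the 10 genes (1 panel each, all panels spanning the same number of log2 units) at 8 h and 2 h; each point is 1 array and each line joins the arrays of 1 inhibitor. Ceacam1 and Cd226 are higher and Cd274 lower at 8 h with all 7 inhibitors, while the Ctla4 lines are nearly flat.

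Cd28 and Icos are the costimulatory receptors of the CD28 family, Cd28 present on resting T cells and Icos induced by activation, and they moved in opposite directions. Cd28 had a lowest, median and highest log2 intensity of 12.28, 12.34 and 12.39 at 8 h, against 11.87, 12.12 and 12.18 at 2 h. All 8 h arrays lay above all 2 h arrays, and the TYK2 inhibitor had the lowest value at either time. The difference was 0.25 (SE 0.039, limma adjusted p = 9.64e-05), a 1.19-fold higher intensity.

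Icos had 10.66, 10.81 and 10.93 at 8 h, against 11.03, 11.15 and 11.31 at 2 h. No 8 h array reached the lowest 2 h array, which was that of IFN.6226. The difference was -0.33 (SE 0.046, limma adjusted p = 3.60e-05), and the change was smallest with IFN.6226, -0.12, and largest with the JAK1 inhibitor, -0.48.

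Cd226 (DNAM-1) is an activating receptor that shares its ligands, Pvr (CD155) and Nectin2 (CD112), with the inhibitory receptor Tigit. Cd226 had 9.50, 9.79 and 9.95 at 8 h, against 8.15, 8.41 and 8.50 at 2 h. The gap between the groups was wider than the spread within either, and the TYK2 array was the lowest at both times. The difference of 1.41 (SE 0.067, limma adjusted p = 1.58e-09) is a 2.65-fold higher intensity and the rank of 7 among the 11851 genes ordered from the largest rise.

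Tigit had 9.14, 9.30 and 9.56 at 8 h, against 9.63, 9.81 and 10.03 at 2 h. The ranges came close but did not overlap, the highest 8 h array being that of the JAK2 inhibitor. The difference was -0.46 (SE 0.063, limma adjusted p = 3.50e-05), and with the JAK2 inhibitor it was -0.11, against -0.63 to -0.36 with the other 6. The activating and the inhibitory receptor for the same ligands thus had opposite signs with all 7 inhibitors.

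Ctla4 takes B7 ligands away from CD28 and is induced by activation. It had 10.63, 10.85 and 10.91 at 8 h, against 10.77, 10.83 and 10.87 at 2 h. The times overlapped, with 2 inhibitors up and 5 down. The difference was -0.01, with a 95% interval of -0.11 to 0.09 (limma adjusted p = 0.870).

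Pdcd1 (PD-1) is the inhibitory receptor that recruits the phosphatase SHP-2, and Cd274 (PD-L1) is its ligand. Pdcd1 had 7.72, 8.08 and 8.19 at 8 h, against 8.40, 8.54 and 8.64 at 2 h. The array of the JAK1 inhibitor was the lowest at 8 h and the highest at 2 h, so its change, -0.92, was the largest of the 7, and that with the JAK2 inhibitor, -0.21, the smallest. The upper quartile of the whole array also fell most with the JAK1 inhibitor, from 469 at 2 h to 398 at 8 h. With the JAK2 inhibitor alone it rose, from 455 to 497, and its part in the Pdcd1 changes was not tested. The difference over all inhibitors was -0.52 (SE 0.076, limma adjusted p = 5.69e-05).

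Cd274 had 8.07, 8.48 and 8.80 at 8 h, against 9.32, 9.54 and 9.94 at 2 h. The highest 8 h array, that of the JAK2 inhibitor, lay well below the lowest 2 h array, that of the JAK1 inhibitor. The difference was -1.15 (SE 0.060, limma adjusted p = 3.59e-09), so the intensity was 2.22-fold lower at 8 h, and 0.861% of all genes fell as far. Changes ranged from -1.41 with IFN.6228 to -0.996 with the JAK2 inhibitor.

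Lag3, an inhibitory receptor that binds MHC class II, had 8.57, 8.68 and 8.80 at 8 h, against 8.22, 8.44 and 8.52 at 2 h. The times did not overlap, although the lowest 8 h array and the highest 2 h array were close. The difference was 0.25 (SE 0.064, limma adjusted p = 0.00446). The array of the JAK2 inhibitor was the highest at 8 h and the lowest at 2 h, giving a change of 0.59, against 0.13 to 0.25 with the other 6. The whole arrays of this inhibitor likewise had the highest upper quartile at 8 h (497) and the lowest at 2 h (455). Pdcd1, Tigit, Cd274 and Ceacam1 also had their most upward change with this inhibitor, while Cd28, Icos, Ctla4 and Cd226 did not. The part of array brightness in these changes was not tested.

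Ceacam1, an adhesion molecule with inhibitory motifs in its long cytoplasmic tail and a partner of TIM-3, had the largest rise of all 11851 genes. It had 8.02, 8.25 and 8.55 at 8 h, against 6.32, 6.62 and 6.83 at 2 h. No inhibitor came near closing the gap, the smallest change being 1.20 with the JAK1/2 inhibitor and the largest 2.23 with the JAK2 inhibitor. The difference was 1.67 (SE 0.099, limma adjusted p = 1.17e-08), a 3.18-fold higher intensity.

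Havcr2 (TIM-3), the inhibitory receptor of effector T cells, was dim on every array. It had 5.41, 5.69 and 5.79 at 8 h, against 5.89, 5.93 and 6.01 at 2 h. These ranges did not overlap, and the 8 h values were lower with all 7 inhibitors. Fitted with no filter on dim probe sets, its difference was -0.29 (SE 0.068, limma adjusted p = 0.00326), a value that rests on intensities close to the dim end of the array.

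**Figure D2:**
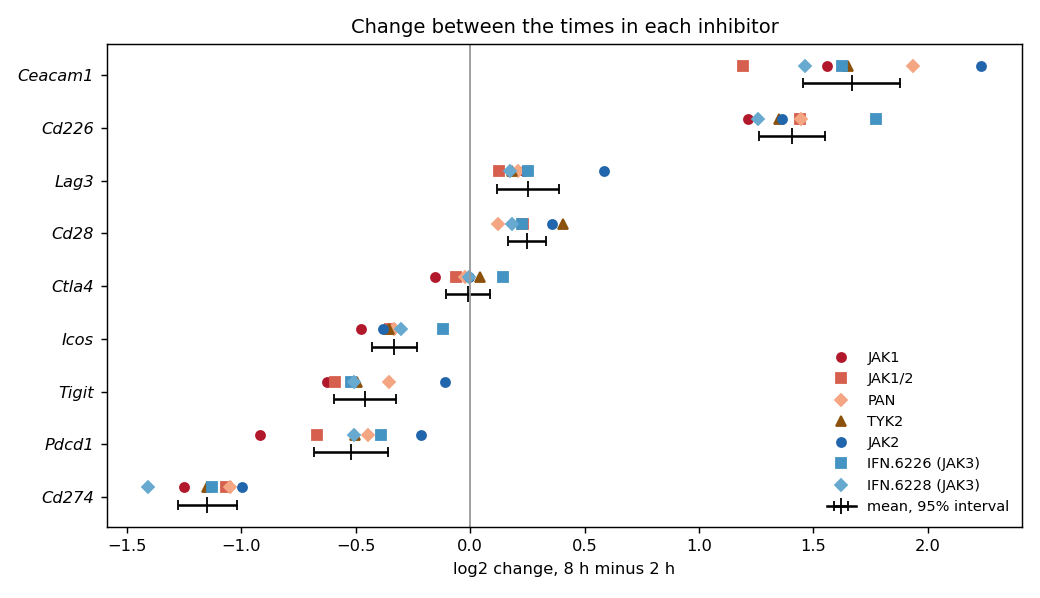
Log2 change from 2 h to 8 h for the 9 tested genes, 1 point per inhibitor, with the mean and its 95% interval from the limma fit drawn below the points. Ceacam1 and Cd226 lie between 1.20 and 2.23 and Cd274 between -1.41 and -0.996, and points of Ctla4 alone fall on both sides of 0.

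The neighbouring genes of the same pathways were also mixed between 8 h and 2 h. Of 10 measured genes for ligands of these receptors, 6 were tested, of which 2 were called higher and 2 lower. Pdcd1lg2 (PD-L2), the second ligand of PD-1, had 5.83, 5.99 and 6.21 at 8 h, against 6.93, 7.11 and 7.30 at 2 h. Its difference of -1.12 (SE 0.062, limma adjusted p = 5.95e-09) was close to that of Cd274, though its 8 h values lay below the level used as the filter. Cd86, a B7 ligand of CD28 and CTLA-4, fell by 0.30 (limma adjusted p = 0.0028), while Cd80, the other B7 ligand, rose by 0.63 (limma adjusted p = 4.46e-05). Lgals9 (galectin-9), a ligand of TIM-3, rose by 0.45 (limma adjusted p = 6.44e-06). Pvr, the ligand shared by Tigit and Cd226, had a difference of 0.08 (limma adjusted p = 0.352).

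Among 18 other tested receptors of the immunoglobulin and related families, 12 were called higher at 8 h and 1 lower, with a median difference of 0.35 against 0.02 over all genes. Cd96, another receptor of CD155, rose by 0.79 (limma adjusted p = 1.34e-08), Pecam1 by 0.81, Cd84 by 0.65 and Cd5, a brake on antigen receptor signalling, by 0.43. Of 24 signalling genes downstream of the receptors, 8 were called higher and 7 lower, among them Prkcq (protein kinase C theta) with 0.61, Sh2d1a (SAP) with 0.66, Dgkz with 0.56 and Vav1 with 0.49. Of 21 genes for transcription factors and other regulators of these receptors, 4 were called higher and 9 lower.

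The steepest falls among the regulators were those of the NR4A factors, which antigen receptor signalling induces. Nr4a3 fell by 3.27, Nr4a1 by 2.37 and Nr4a2 by 1.67, and Il2ra, the alpha chain of the interleukin-2 receptor, fell by 0.81 (limma adjusted p between 4.74e-12 and 1.27e-08 for the 4 genes). Of 11 genes known as STAT5 targets, 0 were called higher and 8 lower at 8 h, with Cish at -1.48, Socs2 at -1.47 and Socs1 at -0.72. Markers of B cells, CD8 T cells and natural killer cells moved with time as well. The mean of the B cell markers lay between 8.38 and 8.65 at 8 h, against 8.02 to 8.21 at 2 h, and all 4 tested were called higher. CD4 T cell genes did so too, 5 of 6 being called higher, and their mean lay between 11.92 and 12.02 at 8 h, against 11.64 to 11.75 at 2 h. Of the CD8 pair, Cd8b1 was called higher by 0.42 (limma adjusted p = 2.46e-05) and Cd8a had 0.14 (limma adjusted p = 0.130), and the mean of both lay between 7.94 and 8.16 at 8 h, against 7.59 to 7.82 at 2 h. Of 5 natural killer cell genes, 2 were tested, of which Klrd1 was called higher by 0.69 (limma adjusted p = 1.36e-05) and Tyrobp had 0.12 (limma adjusted p = 0.275). The mean of the 5 lay between 5.32 and 5.52 at 8 h, against 5.16 to 5.35 at 2 h, and these ranges overlapped. Of 7 measured myeloid genes, 3 were tested, of which Cd68 was called lower by a difference of -0.22 (limma adjusted p = 0.0193), with a list mean of 6.23 to 6.42 at 8 h, against 6.15 to 6.32 at 2 h. The tested genes of the dendritic cell and erythroid lists, 1 each, were not called. Of 9 regulatory T cell genes, all tested, 5 were called higher and 4 lower. Their mean lay between 8.58 and 9.01 at 8 h, against 8.72 to 8.90 at 2 h. Of 6 follicular helper T cell genes, 4 were tested, of which 2 were called higher and 2 lower. Their mean lay between 7.03 and 7.21 at 8 h, against 7.04 to 7.23 at 2 h. The part of these shifts in the receptor changes was not tested.

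Between inhibitors the receptors differed little. The few calls concerned Cd274, and their share was near that over all genes. Each inhibitor was compared with the other 6 over both times, giving 63 values for the 9 tested genes. Of these, 1 was called, Cd274 with the JAK1 inhibitor, and over the 7 comparisons and all genes 1.11% of values were called. For the JAK1 inhibitor alone, 7.66% of all genes were called, and 6.73% of all genes were called lower. Of the 6 tested ligand genes, 1 was also called lower there, Lgals9 with -0.33 (limma adjusted p = 0.0171). With the JAK1 inhibitor Cd274 was at 8.07 at 8 h and 9.32 at 2 h, the lowest of the 7 at each time. The other 6 ranged from 8.37 to 8.80 at 8 h and from 9.49 to 9.94 at 2 h. The difference was -0.40 (SE 0.085, limma adjusted p = 0.0138), a 1.32-fold lower intensity, against a median of -0.05 over all genes. Adjusted over all 7 comparisons together, a choice made after seeing the data, this p became 0.0759, and without the 8 h array of the JAK1 inhibitor the difference was -0.34 (SE 0.11, limma adjusted p = 0.160).

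At the other end of the Cd274 order stood the JAK2 inhibitor with 0.31 (95% interval 0.12 to 0.49, limma adjusted p = 0.312, where 0.0759% of all genes were called) and IFN.6228 with 0.24 (0.05 to 0.42, limma adjusted p = 0.648, 0% of all genes), neither of which was called. Taken in pairs, also a choice made after seeing the data, 21 pairs of inhibitors gave 189 values for the 9 genes, of which 2 were called, against 0.698% of values over all genes. Both concerned Cd274. The JAK1 inhibitor gave less than the JAK2 inhibitor by a difference of -0.60 (SE 0.11, limma adjusted p = 0.00886) and less than IFN.6228 by -0.54 (limma adjusted p = 0.0124). These p were adjusted over genes within a pair, and over all genes and all 21 pairs together they became 0.0387 for the JAK2 inhibitor and 0.0685 for IFN.6228.

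The JAK1/2, PAN and TYK2 inhibitors sat together for Cd274. Their differences from each other were at most 0.07 in size, none was called, and the 95% interval that reached farthest from 0, that of PAN minus TYK2, ran from -0.17 to 0.31. The pair labelled JAK3 could be set side by side at the same times, each inhibitor at its own IC80. IFN.6226 minus IFN.6228 was -0.13 for Cd274 (95% interval -0.37 to 0.11, limma adjusted p = 1.00), and 0 of the 9 genes were called by limma, as were 0 of all genes (0%), while 42 genes had an unadjusted p under 0.05.

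**Figure D3:**
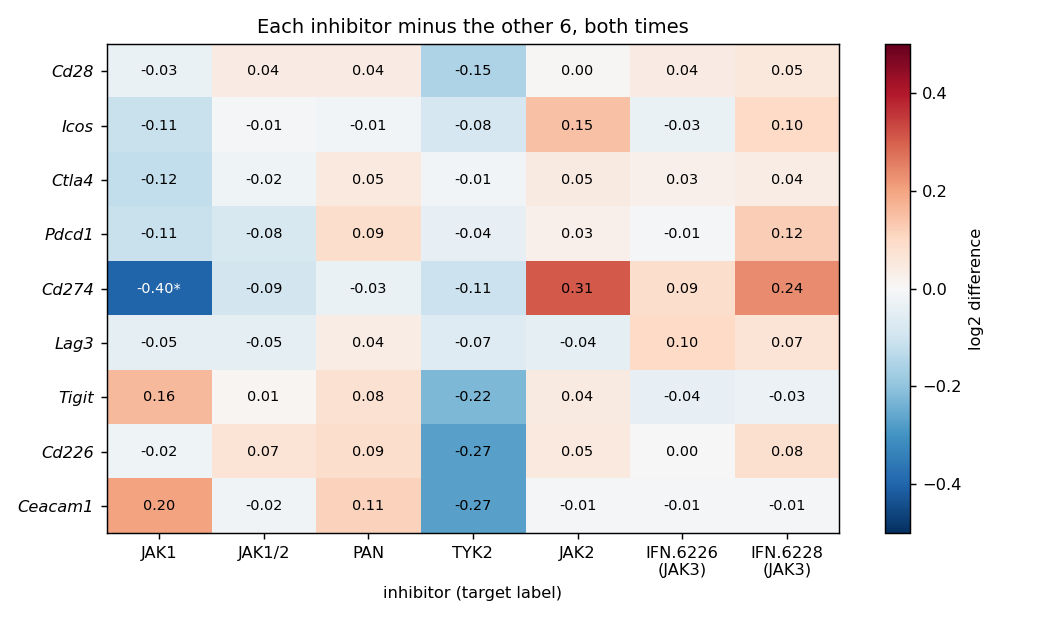
Log2 difference between each inhibitor and the other 6 over both times (columns) for the 9 tested genes (rows), with the value in each cell and colours from blue (lower) to red (higher); a star marks the 1 call. Cd274 runs from -0.40 with the JAK1 inhibitor to 0.31 with the JAK2 inhibitor, and the TYK2 column holds negative values alone (Ctla4, at -0.01, turned positive after quantile normalization).

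Receptors other than Cd274 gave no call with any inhibitor, and most of their differences were under 0.15 in size. Tigit with the JAK1 inhibitor was at 9.40 at 8 h and 10.03 at 2 h, the highest of the 7 at 2 h. Its difference from the other 6 was 0.16 (limma adjusted p = 0.276), but 0.26 after quantile normalization (limma adjusted p = 0.0116) and 0.27 after cyclic loess (limma adjusted p = 0.0095), so it passed under both of these scalings. Ceacam1 with the JAK1 inhibitor differed by 0.20 (95% interval -0.10 to 0.51, limma adjusted p = 0.393). Under the same contrast Pdcd1, Icos and Ctla4 had -0.11, -0.11 and -0.12, each with an interval that included 0.

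With the TYK2 inhibitor all 9 tested genes had negative differences from the other 6 (Ctla4, at -0.01, turned positive after quantile normalization), with a median of -0.11 against 0.00 over all genes. The most negative were Ceacam1 and Cd226, each with -0.27, then Tigit with -0.22 and Cd28 with -0.15. None was called (limma adjusted p from 0.871 to 1.00), as none of all genes was (0%), and 570 genes had an unadjusted p under 0.05. Negative signs were common in the wider lists as well, since 17 of the 18 other receptors were also lower with the TYK2 inhibitor. The Cd226 array was the lowest of the 7 with the TYK2 inhibitor at 8 h (9.50) and at 2 h (8.15).

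The labels also allow a comparison by target. JAK1 and TYK2 attach to the interferon alpha receptor, so the 4 inhibitors that name either (JAK1, JAK1/2, PAN and TYK2, with PAN taken to include both) were set against the 3 labelled JAK2 or JAK3 only, with 1 value per inhibitor. At 2 h none of the 9 receptors was called by limma, against 0.692% of all genes (82 genes), and 486 genes had an unadjusted p under 0.05. Cd274 was the 1 member whose classes did not overlap, as was the case for 5.01% of all genes, 3.13% with the lower class the same. It was at 9.32, 9.49, 9.54 and 9.52 with the JAK1, JAK1/2, PAN and TYK2 inhibitors, against 9.80, 9.68 and 9.94 with JAK2, IFN.6226 and IFN.6228. All 4 of the JAK1 or TYK2 class lay below all 3 of the other. The difference was -0.34 (SE 0.080, limma adjusted p = 0.111). The exact two-sided permutation test gave p = 0.0286, the smallest value that its 35 arrangements allow. Of the tested ligand genes, Cd86 and Lgals9 were also lower in this class without overlap. Their differences were -0.38 and -0.23 (limma adjusted p = 0.121 for each).

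At 8 h none of the 9 receptors was called by limma (0% of all genes), and 1854 genes had an unadjusted p under 0.05. All 9 members had negative class differences there, with a median of -0.12 against -0.08 over all genes. The signs depended on the scaling, since after quantile normalization Cd226, Lag3, Ceacam1 and Tigit were positive, as were Cd226 and Tigit after cyclic loess. Cd274, Icos and Lag3 were lower in the JAK1 or TYK2 class without overlap, a pattern shown by 13.6% of all genes (19.1% in either direction). The upper quartiles of the 8 h arrays were split the same way, 398 to 461 in this class against 464 to 497 in the other. The part of array brightness in these separations was not tested. Cd274 was at 8.07, 8.42, 8.48 and 8.37 with the JAK1, JAK1/2, PAN and TYK2 inhibitors, against 8.80, 8.55 and 8.54 with JAK2, IFN.6226 and IFN.6228. The classes were separated by a small step between PAN and IFN.6228. The difference was -0.29 (SE 0.12, limma adjusted p = 0.307, exact permutation p = 0.0571 over 35 arrangements).

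Icos at 8 h was at 10.66, 10.81, 10.81 and 10.74 in the JAK1 or TYK2 class, against 10.93, 10.91 and 10.93 in the JAK2 or JAK3 class. Its 3 values in the JAK2 or JAK3 class were nearly equal and above the other 4. The difference was -0.16 (SE 0.073, limma adjusted p = 0.317). The exact permutation p was 0.0286, again the smallest value possible. Lag3 at 8 h ranged from 8.57 to 8.68 in the JAK1 or TYK2 class, against 8.69 to 8.80 in the other class. Its difference was -0.14 (SE 0.086, limma adjusted p = 0.372, exact permutation p = 0.0571). The step between the classes was smaller than any spacing of neighbours within them.

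The change from 2 h to 8 h did not give a call between these classes for any of the 9 receptors, against 0.101% of all genes (12 genes by limma), while 1192 genes passed at an unadjusted p below that threshold. The largest class difference in change was that of Pdcd1, -0.27 (95% interval -0.56 to 0.03, limma adjusted p = 0.479). For Cd274 it was 0.05 (95% interval -0.21 to 0.31, limma adjusted p = 0.833). Grouping the inhibitors by the kinases of the interleukin-2 receptor, with the 5 that name JAK1 or JAK3 (PAN included) set against JAK2 and TYK2, gave 0 calls by limma among the 9 receptors and 0 among all genes (0%), while 245 genes passed unadjusted. Cd28, Cd226 and Ceacam1 had class differences of 0.09, 0.13 and 0.17 there, and each 95% interval included 0.

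The order of the inhibitors for Cd274 followed that of the interferon-induced genes. A list of 30 such genes (all tested) had 26 called lower with the JAK1 inhibitor against the other 6, and its mean per array was set beside Cd274. At 8 h both orders ran JAK1, TYK2, JAK1/2, PAN, IFN.6228, IFN.6226 and JAK2 from low to high. At 2 h they shared 5 of 7 places, with JAK2 and IFN.6228 exchanged at the top. The upper quartiles of the whole 8 h arrays ran in nearly the same order: JAK1 (398), JAK1/2, TYK2, PAN, IFN.6226, IFN.6228 and JAK2 (497). Among the 2 h arrays that of JAK2 had the lowest upper quartile, 455. The part of array brightness in the Cd274 order was not tested. With the mean of each time removed, Pearson r between Cd274 and the list mean was 0.92 over the 14 arrays, which share inhibitors between the times. No other member exceeded 0.63 (Ctla4), and Tigit and Ceacam1 had -0.29 and -0.25.

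Over time, however, the list and Cd274 went opposite ways. The list mean lay between 8.15 and 9.82 at 8 h, against 7.63 to 9.42 at 2 h, and 27 of the 30 genes were called higher at 8 h and 1 lower. Cd274 fell with every inhibitor. Ifit3, an antiviral gene of the interferon response, differed by between 0.50 and 2.24 from 2 h to 8 h with single inhibitors, always upwards, and with the JAK1 inhibitor it was at 7.13 at 8 h and 5.93 at 2 h. The changes of Rsad2 and Mx1, antiviral genes of the same response, ran from 0.27 to 1.87 and from 0.28 to 1.42. Irf1, a transcription factor known to act on the Cd274 gene, kept overlapping ranges between the times, with a difference of -0.08 (limma adjusted p = 0.257). With the JAK1 inhibitor Irf1 was lower than with the other 6 by a difference of -0.58 (limma adjusted p = 0.00101), the same sign as Cd274.

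**Figure D4:**
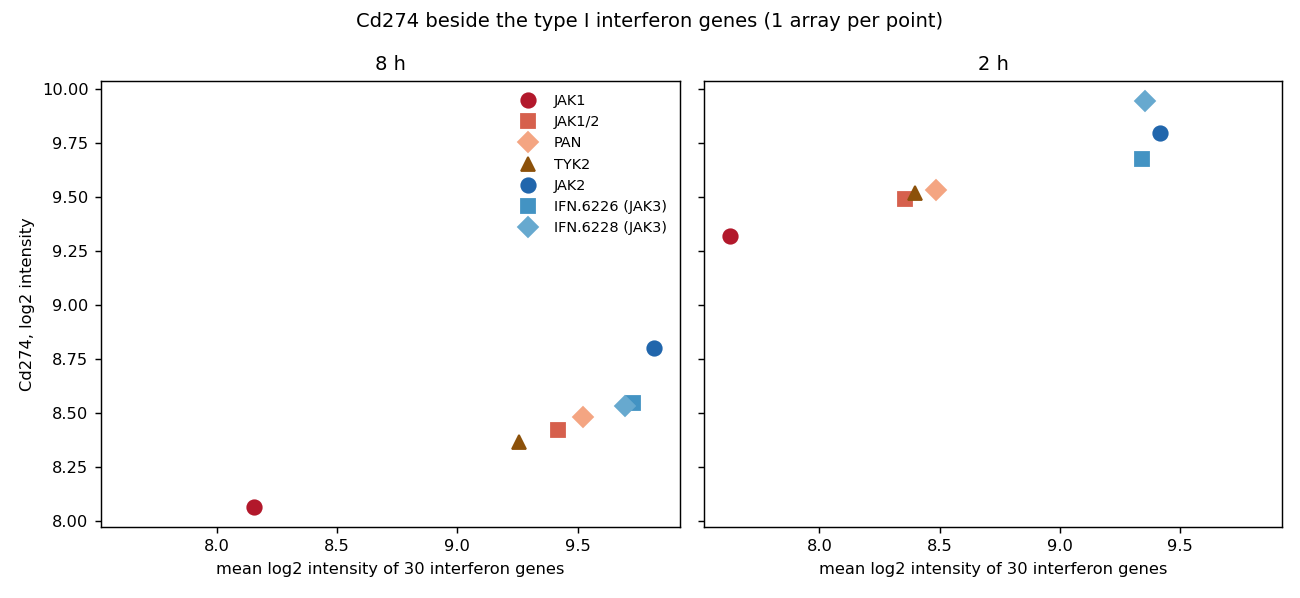
Log2 intensity of Cd274 (vertical axis) against the mean log2 intensity of 30 interferon-induced genes (horizontal axis) at 8 h and at 2 h, 1 point per inhibitor. Within each time the points climb from the JAK1 inhibitor to the JAK2 and JAK3 inhibitors, while the whole 8 h cloud lies lower for Cd274, at 8.07 to 8.80 against 9.32 to 9.94 at 2 h.

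Promoter windows of 250 bases before and 50 after a RefSeq start (GRCm38.p6) were at hand for 6 of the 10 genes: Ctla4, Pdcd1, Cd274, Havcr2, Tigit and Ceacam1. They were searched on both strands for GAAA followed after 2 bases by GAAA, the core of an interferon-stimulated response element, TTCNNNGAA, bound by STAT factors, and TGANTCA, bound by AP-1. These letters occur in 3.44%, 8.30% and 7.81% of 32851 such windows. Among the 6 members, Havcr2 alone held a match, the AP-1 letters TGATTCA beginning 200 bases before the start. The windows of Cd274, whose order followed the interferon genes, of Ceacam1, which had the largest rise with time, and of Ifit3, as an interferon gene with matches, are shown 5′ to 3′ on the strand of the gene. Capitals in Ifit3 mark its matches, 2 of the GAAA pair on the opposite strand and 1 of TGANTCA. The GAAA pair was also found in the windows of Rsad2 and Socs1. It was in no window of Irf1, nor of Tnfsf10 and Tor1aip2, whose patterns were among those most like Cd274. TTCNNNGAA was found in a window of Irf1, in some windows of Tor1aip2 and in that of Cish, and TGANTCA in that of Rsad2. The window of Tnfsf10 held none of the letters searched.
Cd274: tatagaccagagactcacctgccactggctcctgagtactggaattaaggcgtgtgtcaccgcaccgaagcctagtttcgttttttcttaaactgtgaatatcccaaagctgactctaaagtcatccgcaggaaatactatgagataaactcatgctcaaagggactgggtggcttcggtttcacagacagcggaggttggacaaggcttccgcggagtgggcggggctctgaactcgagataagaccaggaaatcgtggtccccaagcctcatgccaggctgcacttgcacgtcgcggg
Ceacam1: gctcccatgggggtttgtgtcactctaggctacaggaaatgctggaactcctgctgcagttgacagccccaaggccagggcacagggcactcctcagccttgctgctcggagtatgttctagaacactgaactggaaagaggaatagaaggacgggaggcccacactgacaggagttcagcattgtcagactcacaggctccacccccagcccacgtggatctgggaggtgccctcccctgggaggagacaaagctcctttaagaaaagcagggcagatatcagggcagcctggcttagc
Ifit3: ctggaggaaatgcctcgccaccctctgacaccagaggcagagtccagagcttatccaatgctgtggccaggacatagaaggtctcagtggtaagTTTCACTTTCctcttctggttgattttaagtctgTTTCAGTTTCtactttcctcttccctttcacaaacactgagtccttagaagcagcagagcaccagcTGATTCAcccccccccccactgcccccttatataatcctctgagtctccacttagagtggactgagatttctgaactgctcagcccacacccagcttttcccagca
The windows lie at chr19:29367188-29367487 (plus strand) for Cd274, chr7:25477576-25477875 (minus strand) for Ceacam1 and chr19:34583279-34583578 (plus strand) for Ifit3. RefSeq places the whole Cd274 gene at chr19:29362107-29388095, so its window lies inside that span, and a further start would not be covered by it. A match describes letters and not a bound site, and no match says only that these letters are not in this window.

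The genes whose patterns over the 14 arrays, less the mean of each time, were most like each member are given as a description. For Cd274 they were Tnfsf10, Tor1aip2 and Slfn10-ps, with Pearson r of 0.97, 0.96 and 0.95, and 3.24% of all genes had r above 0.8 with it. For Cd226 they were Trat1, Cd8b1 and Usp3, with r of 0.84, 0.82 and 0.81, and 0.0338% of genes passed 0.8, Cd8b1 being the marker called higher at 8 h above. For Cd28 they were Trps1, Arhgef3 and Ipcef1 (r of 0.89, 0.88 and 0.87), and for Icos they were Zfp551, Dkc1 and D730005E14Rik (r of 0.90, 0.85 and 0.85). The share of genes above 0.8 was 0.110% for Cd28 and 0.135% for Icos.

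Among the other members, the share of genes above 0.8 ran from 0.895% for Lag3 to 12.8% for Pdcd1. Pdcd1 was closest to Fbxo11, Cdc16 and Exoc6 (r of 0.98, 0.98 and 0.97). Ctla4 was closest to Tubd1, Vapa and Nabp1 (r of 0.94, 0.93 and 0.93, 4.57% of genes above 0.8), and Lag3 to Tbc1d5, Gpatch2l and Mrpl58 (r of 0.96, 0.93 and 0.89, 0.895% above 0.8). Tigit was closest to Git2, Fntb and Mta3 (each 0.96, 3.41% above 0.8) and Ceacam1 to Mboat7, Fntb and Farp1 (r of 0.97, 0.96 and 0.95, 2.04% above 0.8). Tigit and Ceacam1, which moved in opposite directions between the times, were each other's closest partner among the members, with r of 0.91 over the 14 arrays once the time means were removed. Both were highest with the JAK2 inhibitor at 8 h and with the JAK1 inhibitor at 2 h.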

How the data were processed

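Affymetrix Mouse Gene 1.0 ST arrays were hybridised with RNA of CD4+ T cells. Each array contributed an intensity for every probe set, as deposited by the authors, who summarised the probes with RMA in Affymetrix Power Tools according to the submitters' processing notes (no version is given). Intensities ran from 4.78 to 22879 with none below 0, so they were taken to be on a linear scale and log2 was applied. Which arrays were normalized together is not given in the sources used here. Groups, targets and times came from the sample titles and labels.

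Only probe sets with a single symbol were kept (21425 of 24922, for 19752 symbols), 1399 having several and 2098 having none, and each gene was represented by its brightest one. The table of RefSeq names (GRCm38.p6) contained 21347 of them, and 0 symbols needed an update. Genes whose mean fell under the 40th percentile of these probe sets (6.27) were not tested, which left 11851. 1 gene that the naming rule lists is not reported here.

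Tests used limma 3.58.1 and statmod 1.5.0 in R 4.3.3 (lmFit and eBayes with a variance trend), and tables and figures used Python 3.11.15 with numpy 2.4.6, pandas 2.3.3 and matplotlib 3.10.9. Time and single inhibitors came from 1 additive fit of inhibitor and time (6 residual degrees of freedom), and target classes from 1 value per inhibitor (5 residual degrees of freedom). The fits were tested on simulated data with independent noise for each gene and array. Differences in brightness between whole arrays were not simulated, so that test does not cover them. All members are named, with up to 4 genes per list and comparison by moderated t, the 3 genes most like each member, and Ifit3, Rsad2, Mx1, Irf1, Socs1 and Cish. Cell markers (Cd4, Cd3e, Ms4a1, Cd8a, Cd8b1, Klrd1, Tyrobp, Cd68) and Pvr lie outside the rule. The members and lists were chosen with earlier results of these data known. The alternatives were 3 other normalizations, other filters, averaging over probe sets of a gene, an offset of 50, moderation without the trend or made robust, other blocks or classes, and leaving out inhibitors or 1 array. The number of arrays limits the precision.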

Additional observations from a re-analysis of the deposited data

Results flagged for a closer look

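Dixon's criterion for a value far from the rest was applied to 40 groups of 4 to 7 inhibitors over the 10 genes, and chance alone marks about 1 in 20 groups, that is 5% of them. It marked 4. Lag3 changed by 0.5866 on the log2 scale from 2 h to 8 h with the JAK2 inhibitor, against 0.13 to 0.25 with the other 6. The upper quartile of the whole array rose with this inhibitor alone, from 455 at 2 h to 497 at 8 h. Cd226 changed by 1.7754 with IFN.6226, against 1.22 to 1.45 with the other 6. Cd226 at 2 h was at 8.154 with the TYK2 inhibitor, against 8.40 to 8.44 with the other 3 inhibitors that name JAK1 or TYK2. Outside that group, IFN.6226 was nearly as low, at 8.175. Cd28, averaged over both times, was at 12.1783 with the JAK1 inhibitor, against 12.24 to 12.25 with the other 4 inhibitors that name JAK1 or JAK3. The TYK2 inhibitor, outside that group, had lower Cd28 values at both times. Each flag rests on 1 array or 1 pair of arrays, and the reason for each was not tested.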

How the results depend on the processing

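All 8 members called between the times kept their call and direction under each alternative that tested them (19 each, 18 for Ceacam1, which lies below the filter at the 60th percentile), and their differences stayed between -1.19 and 1.75. The class comparisons and IFN.6226 against IFN.6228 gave 0 calls of a member under every alternative run. Calls of a member with 1 inhibitor numbered 1 (Cd274 with the JAK1 inhibitor) but 2 after quantile normalization and 2 after cyclic loess, both adding Tigit with the JAK1 inhibitor. There were 0 without the 8 h array of the JAK1 inhibitor, and 0 when adjusted over all 7 contrasts, an alternative chosen after seeing the data. Leaving out each inhibitor in turn gave 1, except for the JAK1 inhibitor, whose removal takes away the called comparison and gave 0. Cd274 with the JAK1 inhibitor was called in 15 of 16 alternatives, at -0.43 to -0.30. Of 1940 alternative values of members, 1827 kept direction and call, 110 uncalled values changed sign, 2 gained a call and 1 lost it. With the inhibitor as a random block its consensus correlation was 0.036. Leaving out only the 8 h array of the JAK1 inhibitor was not run apart for the target classes, where at 8 h it equals leaving out that inhibitor, and it was not run for the mean of both times. The fit of the times paired the arrays by inhibitor. By replicate number, no paired analysis was possible because each title carries the number 1 alone. Dim genes such as Havcr2 are limited by signal over background.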
